A study of Mus musculus with 4 samples.

Results

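Interferon-stimulated genes are the antiviral and immune-regulatory genes that a cell switches on when it is exposed to interferon. The set described here was a list of 35 mouse genes given by symbol. The rule used no measured value, but the list was drawn up with earlier results of these arrays known, so its direction is not independent evidence. A gene was measured where a probe set on the array carried its symbol alone, and the probe set with the highest mean was used where there were several. That gave 32 of the 35 genes, out of 22180 genes in all. Ifi44 had no such probe set, and Oas1a and Dtx3l were found only on probe sets that carry the symbol of a neighbouring gene as well.

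Type I interferons bind the receptor IFNAR, whose kinases JAK1 and TYK2 signal through STAT proteins. With IRF9 these form the complex ISGF3, which binds the interferon-stimulated response element (ISRE) in the promoters of its target genes. Microglia, the resident macrophages of the brain, respond to interferons and also produce them, and many of these genes keep a basal level through low tonic signalling without any infection.

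The cells were N9, an immortalised line derived from mouse microglia, and the compound was nimodipine, a dihydropyridine that blocks L-type calcium channels. Of the 4 Affymetrix arrays, 2 held RNA from cells given vehicle, 1 from cells given 10 µM nimodipine and 1 from cells given 20 µM. All came from cultures in DMEM with serum. The vehicle is named only as the one for each treatment, without saying which control belongs to which dose. The labels name no interferon, virus or inflammatory stimulus, state no exposure time, and do not say that the vehicle arrays came from separate cultures. Expression is given as deposited, on a log2 scale, and differences are from the mean of both vehicle arrays. Neither dose had a replicate, so a difference at a single dose carries no test of its own.

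The median of all deposited values was 5.04. Of the 32 genes, 23 had a mean over the arrays that reached it and are called the brighter genes; the other 9, Ifit1, Ifit2, Isg15, Mx1, Mx2, Ifih1, Xaf1, Rtp4 and Cmpk2, are called the dimmer genes. Differences of the dimmer genes sit close to the background of the array and can be understated, and no fold is given for them. Of 13 measured microglial markers, 11 reached the same median, Cd68 at 13.50 to 13.55 and Csf1r at 11.54 to 11.92. At 10 µM 9 of the 13 were lower than the vehicle mean (median -0.11), beside 47.6% of all genes. On that array 6 lay below both controls, among them Itgam at -0.77 and Ptprc at -0.43. Another 4 lay above both, Lyz2 at 0.31, Fcer1g at 0.25, Spi1 at 0.16 and Tyrobp at 0.06. At 20 µM 6 of the 13 were lower (median 0.04), beside 50.7% of all genes. P2ry12 and Tmem119, markers of microglia in the resting brain, lay below the median of all values on all 4 arrays. Of 28 markers of other cell types, 13 reached the median of all values, and the median difference of the 28 was 0.07 at 10 µM, with 19 higher, and 0.11 at 20 µM, with 20 higher. The part of either marker list in the differences below was not tested.

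RefSeq windows of 250 bases before the transcription start (GRCm38.p6) could be matched to 26 of the 35 genes. The core of the ISRE, searched on both strands as GAAA, any 2 bases and GAAA, was in the window of 8 of those 26 genes, Bst2, Ifit1, Ifit3, Isg15, Oas1a, Oas3, Rsad2 and Stat2. Among all genes with a window it was in 3.46%. The gamma-activated sequence of interferon gamma signalling, searched as TTC, any 3 bases and GAA, was in the windows of 7 of the 26, among them Irf1, Eif2ak2 and Samhd1, and in 8.13% of all genes with a window. In Bst2 a match to each motif shared bases with the other. A match is a description of the letters in the window and not evidence of binding in these cells.

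Windows of 4 genes are printed, 2 that were lower at 10 µM and 2 that were higher, with ISRE core matches in capitals. Oas3 and Ifit3 had the lowest and Ifit1 and Bst2 the highest differences at 10 µM among measured genes with the motif. Oas3 lies on the minus strand at chr5:120777660-120777909 and Bst2 on the minus strand at chr8:71537473-71537722. Ifit3 is on the plus strand at chr19:34583279-34583528 and Ifit1 on the plus strand at chr19:34640639-34640888. Each reads 5′ to 3′ along its gene and ends at the base before the start.
Oas3: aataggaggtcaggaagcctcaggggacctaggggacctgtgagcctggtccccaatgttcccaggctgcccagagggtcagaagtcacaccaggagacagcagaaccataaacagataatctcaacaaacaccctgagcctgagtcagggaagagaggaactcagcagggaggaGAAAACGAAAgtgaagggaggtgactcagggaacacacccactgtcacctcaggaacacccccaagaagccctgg
Ifit3: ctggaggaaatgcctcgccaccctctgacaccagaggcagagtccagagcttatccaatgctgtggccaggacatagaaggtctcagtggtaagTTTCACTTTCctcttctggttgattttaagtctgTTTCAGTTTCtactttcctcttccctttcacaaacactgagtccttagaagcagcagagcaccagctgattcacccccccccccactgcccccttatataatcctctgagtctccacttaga
Ifit1: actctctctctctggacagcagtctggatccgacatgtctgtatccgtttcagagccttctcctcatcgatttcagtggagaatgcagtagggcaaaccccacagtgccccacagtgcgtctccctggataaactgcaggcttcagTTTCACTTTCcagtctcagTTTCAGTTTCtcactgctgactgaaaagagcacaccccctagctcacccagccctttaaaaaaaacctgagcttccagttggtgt
Bst2: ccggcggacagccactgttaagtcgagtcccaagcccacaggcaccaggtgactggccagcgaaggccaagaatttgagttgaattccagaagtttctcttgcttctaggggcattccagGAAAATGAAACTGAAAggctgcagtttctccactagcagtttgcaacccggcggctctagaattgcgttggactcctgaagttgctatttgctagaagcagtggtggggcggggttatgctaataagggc
Ifit3 and Ifit1 each carried 2 separate cores on the strand opposite the gene, while Bst2 carried 2 that overlap and Oas3 carried 1, both on the gene's own strand. Genes with a core were found on both sides of vehicle. Of the 7 measured genes with a core, 3 were lower at 10 µM (median difference 0.03), and of the 16 measured genes with a window and no core, 11 were lower (median -0.20). At 20 µM the order was the other way, with 5 of the 7 lower (median -0.24) and 10 of the 16 (median -0.09). Both groups hold dimmer genes, and the median of 0.03 is the value of one of them, Isg15. The 9 measured genes without a window, Usp18 among them, had 5 lower at 10 µM (median -0.22) and 3 at 20 µM (median 0.08). Of all genes 47.6% were lower at 10 µM and 50.7% at 20 µM. A link between motif and direction was not tested.

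**Figure D1:**
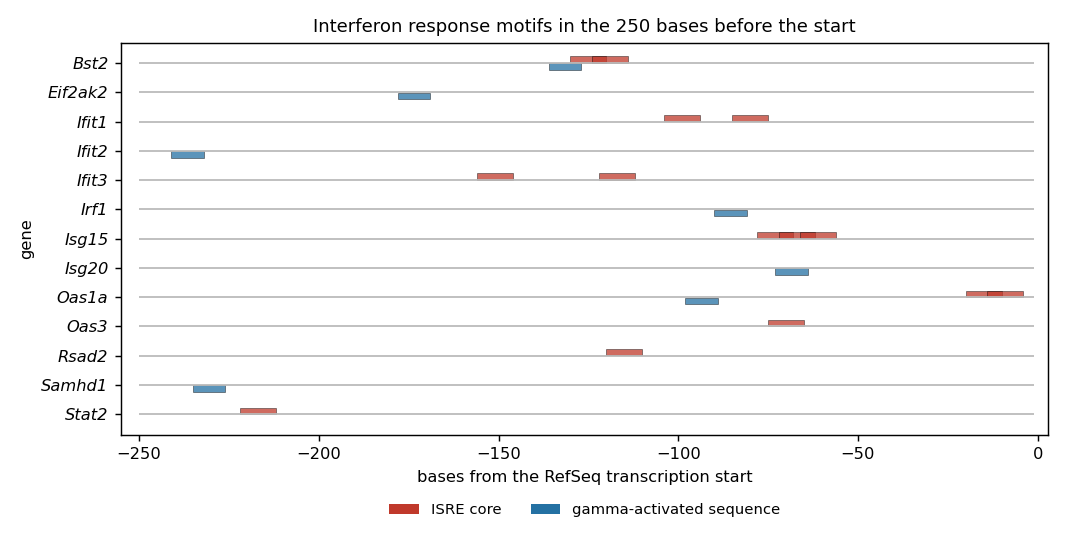
Matches to the ISRE core (red) and to the gamma-activated sequence (blue) in the 250 bases before the RefSeq start of each interferon-stimulated gene that holds either; the x axis gives bases from the start. The cores of Isg15 and Oas1a overlap in runs close to the start, and the match in Stat2 is the farthest of the cores.

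At 10 µM the brighter interferon-stimulated genes were mostly lower than vehicle. The array at this dose lay below both vehicle arrays for 18 of the 23, above both for Irf1, Rsad2 and Bst2, and between them for Oasl2 and Zbp1. Among all brighter genes of the array, 42.1% lay below both vehicle arrays and 37.7% above both. The median difference of the 23 was -0.29, beside -0.01 for all 12764 brighter genes. Of the 23, 16 were lower by more than the gap between their vehicle arrays. The share of all brighter genes lower by more than their gap was not counted, so this count has no background. The median gap was 0.17 for the 23 and 0.12 for all brighter genes. Of the 9 dimmer genes, 8 were higher than the vehicle mean, with a median of 0.21 beside 0.04 for all dimmer genes. Of all 9416 dimmer genes, 5453 were higher. Only 4 of the 9 lay above both vehicle arrays, near the 40.9% of all dimmer genes that did, and the other 5 lay between them. Over all 32 genes, 19 were lower and the median was -0.20, beside 47.6% lower and a median of 0.01 for all 22180 genes. Part of this order was already present between the controls, since 18 of the 23 brighter genes were lower on vehicle 2 than on vehicle 1, with a median of -0.14 (all brighter genes 52.4% lower). Against vehicle 2 alone, the lower of the controls for most of these genes, 18 of 23 were still lower at 10 µM, with a median of -0.25, and against vehicle 1 alone 20 were, with a median of -0.34.

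**Figure D2:**
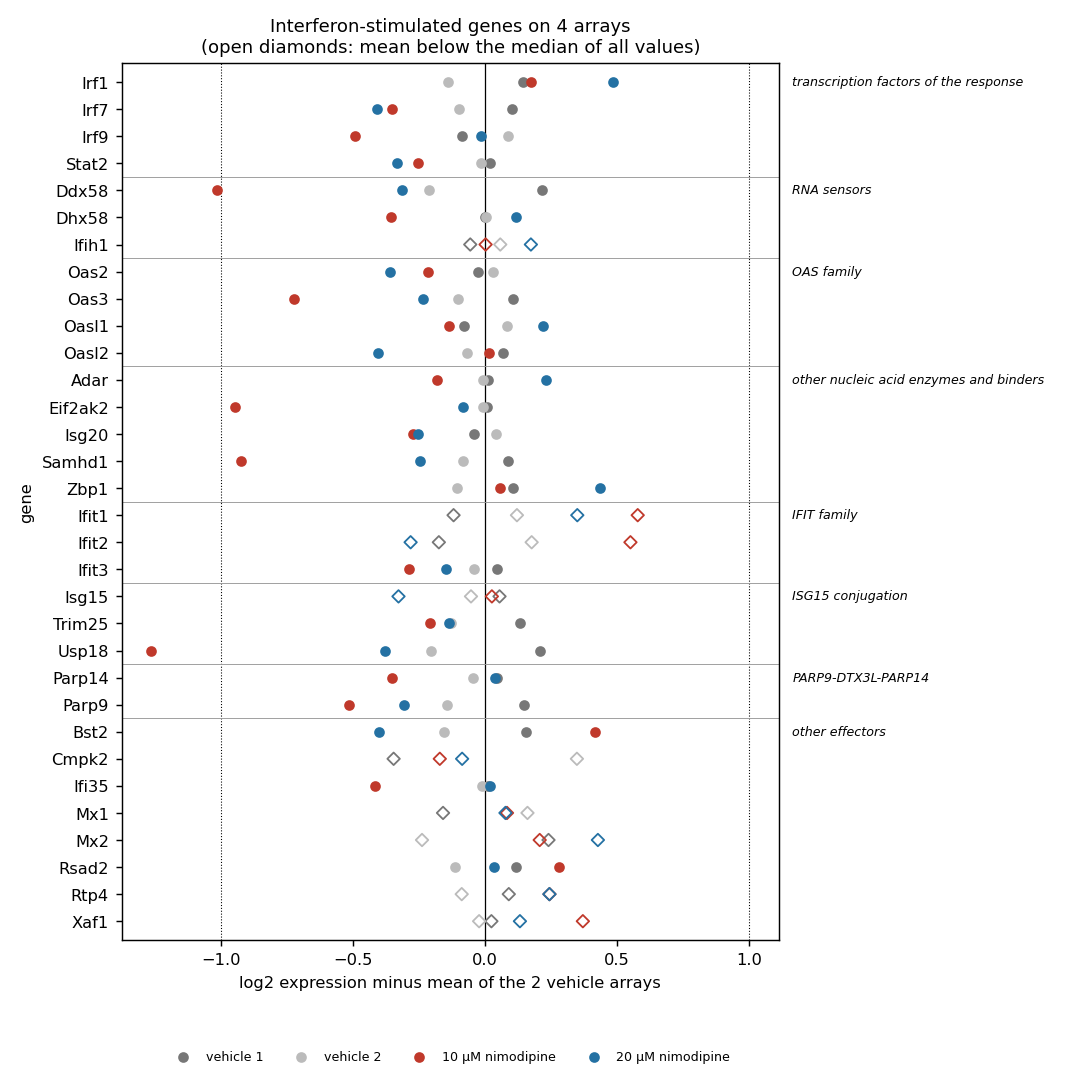
Each row is an interferon-stimulated gene, grouped by role, and each point is an array: log2 expression minus the mean of the 2 vehicle arrays. Filled circles are the 23 brighter genes and open diamonds the 9 dimmer ones; dotted lines mark a difference of 1. Usp18, Ddx58, Eif2ak2, Samhd1 and Oas3 have 10 µM points far to the left of the other 3 arrays, while no 20 µM point lies beyond 0.48 in size.

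Usp18 and Ddx58 were lower by 1 or more on the log2 scale at 10 µM, the limit used for a large difference, and 0 of the 32 genes were higher by as much. Over all genes 1.06% were lower and 0.514% higher by this much, and over the brighter genes 1.76% and 0.846%. At a limit of 1.5-fold there were 5 lower, adding Eif2ak2, Samhd1 and Oas3, and 0 higher, beside 4.37% and 2.39% of all genes and 7.04% and 3.21% of the brighter ones. All 5 are brighter genes.

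Usp18 encodes the protease that removes ISG15 from proteins and, by binding IFNAR2, damps signalling from the type I receptor. Its controls were 7.70 and 7.29, beside 6.23 at 10 µM and 7.12 at 20 µM, so that both nimodipine arrays lay below both controls. The difference at 10 µM was -1.26, a 2.40-fold lower level, and -0.38 at 20 µM, where the vehicle arrays themselves differed by -0.41. Ddx58 encodes RIG-I, the cytosolic sensor of short double-stranded and triphosphorylated RNA. Its values were 8.06 and 7.64, then 6.83 and 7.53, a 2.02-fold lower level at 10 µM. Against vehicle 2 alone its difference was -0.80.

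Eif2ak2, which encodes the RNA-activated kinase PKR that halts translation, had the tightest controls of the 5, at 8.00 and 7.98. It was 7.04 on the 10 µM array and 7.90 at 20 µM, differences of -0.95 and -0.09. Samhd1, a dNTP hydrolase that limits retroviral DNA synthesis, stood at 10.38 and 10.21 in vehicle, 9.37 at 10 µM and 10.04 at 20 µM. Oas3, an oligoadenylate synthetase that activates RNase L when it meets double-stranded RNA, stood at 8.59 and 8.38, then 7.76 and 8.25. For each of these 3 genes the 10 µM array was far below the other arrays and the 20 µM array just below both controls.

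**Figure D3:**
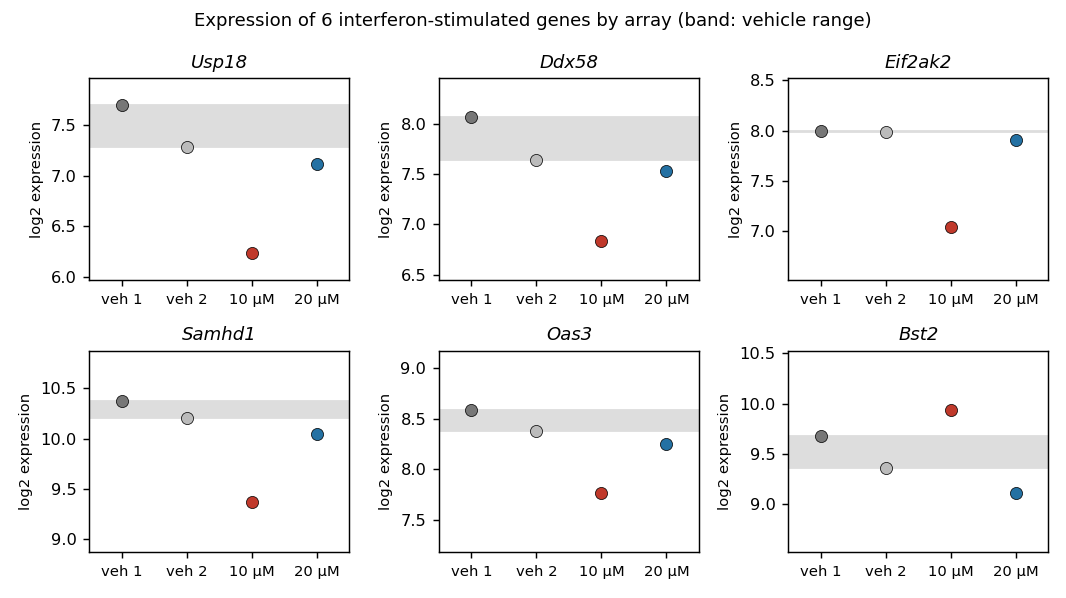
Log2 expression on each array for the 5 interferon-stimulated genes with the lowest differences at 10 µM and for Bst2; the grey band spans the vehicle arrays and every panel covers 2 log2 units. In the 5 genes the 10 µM array lies below the band and the 20 µM array just under it, while Bst2 lies above the band at 10 µM and below it at 20 µM.

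At 10 µM the transcription factors that drive the response differed less than Usp18, Ddx58, Eif2ak2, Samhd1 and Oas3. At 20 µM Irf7 had the lowest difference of the 32 genes, -0.41, and Irf1 the highest, 0.48. Stat2, a subunit of ISGF3, stood at 7.85 and 7.81 in vehicle, 7.57 at 10 µM and 7.50 at 20 µM. Irf7, the factor that amplifies interferon alpha production, stood at 6.97 and 6.77, then 6.52 and 6.46. For these 2 genes the nimodipine arrays were close to each other and below both controls, with the lower value at 20 µM. Irf9, the DNA-binding partner in ISGF3, was lower at 10 µM only, with 7.05 and 7.22 in vehicle, 6.64 at 10 µM and 7.12 at 20 µM. Irf1, a factor strongly induced by interferon gamma, was higher instead, at 6.23 and 5.94, then 6.26 and 6.57. Only its 20 µM difference exceeded the gap between the controls.

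Among the other RNA sensors, Dhx58, which encodes the regulator LGP2, had vehicle values of 7.05 and 7.06, with 6.70 at 10 µM and 7.17 at 20 µM. Ifih1, the sensor MDA5 of long double-stranded RNA, was among the dimmer genes and lay between 4.02 and 4.25 on all arrays. In the OAS family, Oas2 differed by -0.22 at 10 µM and -0.36 at 20 µM and was below both controls each time. Oasl2, an OAS relative, differed by 0.01 at 10 µM and -0.41 at 20 µM, and Oasl1, which restrains Irf7 translation, by -0.14 and 0.22. The array carries several closely related OAS and IFIT genes, and probes of relatives can share signal.

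Of the other nucleic acid enzymes, Isg20, an RNA exonuclease, was lower by similar amounts at both doses, at 7.86 and 7.94 in vehicle, 7.63 at 10 µM and 7.65 at 20 µM. Adar, the enzyme that edits adenosine to inosine in double-stranded RNA, stood at 8.15 and 8.13, then 7.95 and 8.37, so that the doses fell on opposite sides of the controls. Zbp1, a sensor of Z-form nucleic acid that can trigger necroptosis, differed by 0.06 at 10 µM and 0.43 at 20 µM.

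The IFIT proteins bind viral RNA and block its translation. Ifit3, the only brighter gene of the 3, stood at 6.01 and 5.92 in vehicle, 5.68 at 10 µM and 5.82 at 20 µM. Ifit1 stood at 4.29 and 4.53 in vehicle, 4.98 at 10 µM and 4.75 at 20 µM, higher than both controls at each dose. Ifit2 was 4.42 and 4.77, then 5.15 and 4.32. Ifit1 lay below the median of all values on every array and Ifit2 on all but the 10 µM array, so these differences of 0.58 and 0.55 at 10 µM were measured near background.

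In the ISG15 pathway, Isg15 itself, the ubiquitin-like modifier, lay between 3.84 and 4.23 on all arrays and differed by 0.03 and -0.33. Trim25, a ubiquitin ligase that activates RIG-I, stood at 10.00 and 9.74 in vehicle, 9.66 at 10 µM and 9.73 at 20 µM. Its nimodipine values were lower than both controls, but by less than the controls differed from each other.

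Parp9, a partner of the ligase DTX3L in antiviral signalling, was lower at both doses, at 7.25 and 6.95 in vehicle, 6.58 at 10 µM and 6.79 at 20 µM. Parp14, a related ADP-ribosyltransferase, differed by -0.35 at 10 µM and lay within the controls at 20 µM. The probe set that carries the symbols of both Dtx3l and Parp9 stood at 8.51 and 8.31, then 7.42 and 8.04. It differed by -0.99 and -0.37, and it cannot be assigned to either gene.

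The remaining effectors split. Bst2 encodes tetherin, which holds budding virus at the cell surface, and stood at 9.67 and 9.36 in vehicle, 9.93 at 10 µM and 9.12 at 20 µM. Ifi35 was 7.61 and 7.59, then 7.18 and 7.62. Averaged over its 2 probe sets, its difference at 10 µM was -0.15 in place of -0.42. The probe set not used was therefore higher than vehicle at that dose. Rsad2, which encodes viperin, an enzyme that makes a chain-terminating nucleotide, differed by 0.28 and 0.03. Its neighbour Cmpk2, a mitochondrial nucleotide kinase, stood at 4.74 and 5.44 in vehicle, the widest gap between controls among the 32 genes, and both nimodipine arrays fell inside it. Xaf1 and Rtp4 were higher than both controls at each dose by at most 0.37, Mx2 was higher by 0.43 at 20 µM, and Mx1 differed by 0.08 at each dose. These 4 genes were dim.

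At 20 µM the differences were small throughout. No gene of the 32 reached 1.5-fold in either direction, where 0.649% of all genes were lower and 0.577% higher by this much (brighter genes 0.705% and 0.556%). By 1 or more, 0.0496% of all genes were lower and 0.0361% higher (brighter genes 0.0627% and 0.047%). The sizes ran from -0.41 for Irf7 to 0.48 for Irf1. Of the 23 brighter genes, 14 lay below both controls and 6 above, beside 40.3% and 31.5% of all brighter genes, and the median difference was -0.15 beside -0.02. That median is about the size of the one between the 2 controls, which was -0.14. In 21 of the 32 genes the difference was smaller in size at 20 µM than at 10 µM. The share of all genes for which that held was not counted, so this count has no background. Across the array fewer genes passed 1.5-fold at 20 µM than at 10 µM, where 4.37% were lower and 2.39% higher. The doses share the same 2 vehicle arrays, so their differences are not independent of each other. On both nimodipine arrays together, 12 of the brighter genes lay below both controls (22.3% of all brighter genes did) and Irf1 alone lay above both (16.3%).

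**Figure D4:**
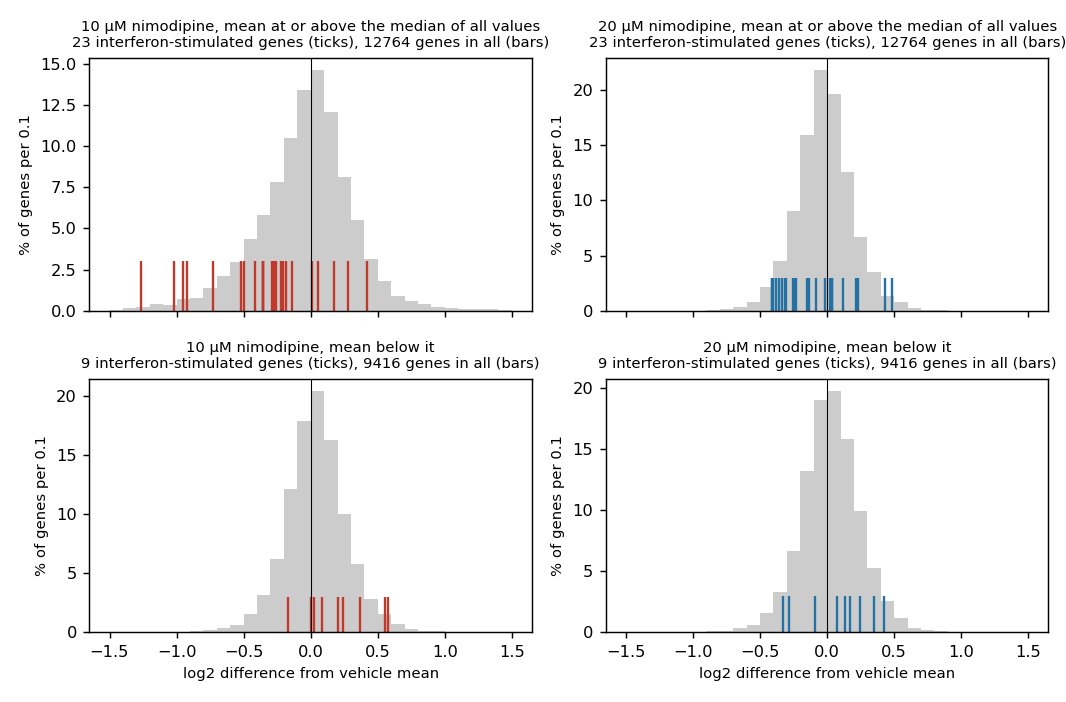
Grey bars give the percentage of all genes in each 0.1-wide bin of log2 difference from the vehicle mean, and ticks mark the interferon-stimulated genes, for each dose (columns) and for brighter and dimmer genes (rows); differences beyond 1.5 in size are not drawn. The red ticks of the brighter genes spread to the left of the bars' centre at 10 µM, and the blue ticks stay within 0.48 of 0.

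With both nimodipine arrays taken as a group against both vehicle arrays, limma called 0 of the 32 genes and 0 of all 22180 (0.0%) at an adjusted p of 0.05. The smallest adjusted p over all genes was 0.792. Any difference between the doses counts as spread in this test. At an unadjusted p under 0.05 there were 6 of the 32 genes, Ifit1, Irf7, Usp18, Parp9, Ddx58 and Samhd1, beside 5.37% of all genes. The largest of these estimates was that of Usp18, -0.82 ± 0.31 (limma SE, 2 arrays per group), and Irf7 differed by -0.38 ± 0.14; both had an adjusted p of 0.792. A fit with 3 groups gives each dose its own contrast if a lone array is assumed to vary like the vehicle pair, which leaves 1 residual degree of freedom. In that fit limma called Eif2ak2 at 10 µM (adjusted p = 0.047) and 0 other genes of the set, beside 1.59% of all genes, or 1.08% counting lower genes alone. At an unadjusted p under 0.05 it gave 12 of the 32, beside 16.9% of all genes. Usp18 had an adjusted p of 0.0535, Samhd1 0.0574, Ddx58 0.0911 and Oas3 0.107. Eif2ak2 was called where Usp18 was not although Usp18 differed more, and the vehicle arrays differed by -0.01 for Eif2ak2 and -0.41 for Usp18. At 20 µM it called 0 of the 32 genes and 0 of all genes (0.0%); at an unadjusted p under 0.05 there were 5 of the 32 and 6.39% of all genes. Between the doses 0 of the 32 were called, beside 0.316% of all genes, the smallest adjusted p being 0.114 for Eif2ak2. In whole-culture RNA, fewer cells that express a gene and less of its RNA per cell cannot be told apart.

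Upstream of these genes, the list of ligands, receptors, kinases, regulators and inducers held 53 measured genes. At 10 µM 29 were lower (median -0.02), beside 47.6% of all genes. At 20 µM 27 were lower (median -0.00), beside 50.7% of all genes. With nimodipine as a group, limma called 0 of the 53. Of the 19 interferon ligand genes measured, 6 reached the median of all values, and Ifnb1 lay between 3.23 and 3.38 on all arrays. The interferon alpha genes are close relatives, and their probe sets can share signal. Ifna4 stood at 6.60 and 6.26 in vehicle, 6.74 at 10 µM and 6.86 at 20 µM, and Ifna1 at 6.92 and 6.81, then 7.08 and 7.11. Ifnl3, an interferon lambda gene, differed by 0.51 and 0.35, with a gap of -0.37 between its controls. Ifna14, Ifna15 and Ifnl2 were higher at 20 µM by 0.40, 0.26 and 0.30 and differed by -0.23, -0.00 and -0.02 at 10 µM.

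The type I receptor chains Ifnar1 and Ifnar2 differed by at most 0.18 in size at either dose. The interferon gamma receptor chains lay on opposite sides of vehicle at 10 µM: Ifngr1 stood at 8.27 and 8.40 in vehicle and 7.86 at 10 µM, and Ifngr2 at 9.93 and 9.98 and then 10.34. Both were within 0.10 of the vehicle mean at 20 µM. Ifnlr1, the specific chain of the lambda receptor, differed by -0.70 at 10 µM, with values of 6.95 and 6.90 in vehicle, 6.22 at 10 µM and 6.77 at 20 µM. Il10rb, its shared partner chain, differed by -0.12 and 0.07. Of the kinases that serve these receptors, Jak2 was higher at 10 µM by 0.47, Jak1 by 0.15, and Tyk2 differed by -0.20; at 20 µM all 3 were within 0.06 of the vehicle mean.

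Of the 16 sensing and induction genes, 12 were lower at 10 µM (median -0.15) and 14 at 20 µM (median -0.13), and all 14 were below both controls at the higher dose. All 16 were brighter genes, and of all brighter genes 51.7% were lower at 10 µM, 54.9% were lower at 20 µM and 40.3% were below both controls at 20 µM. Ptpn6, which encodes the phosphatase SHP-1 that dephosphorylates JAK kinases, stood at 10.57 and 10.52 in vehicle, 9.20 at 10 µM and 10.65 at 20 µM. Tlr7, the endosomal sensor of single-stranded RNA, stood at 7.99 and 8.14, then 6.48 and 7.93. These were the 2 of 53 pathway genes called at 10 µM in the 3-group fit (limma adjusted p = 0.0225 and 0.0197), beside 1.59% of all genes, and Ptpn6 was also called between the doses (adjusted p = 0.0479). Irf2, a repressor at ISRE-like sites, and Pias1, a SUMO ligase that restrains interferon signalling, differed by -0.61 and -0.43 at 10 µM. Tlr4, the lipopolysaccharide receptor, differed by -0.62, while Cgas, the sensor of cytosolic DNA, was higher by 0.64, with 6.71 and 6.78 in vehicle and 7.38 at 10 µM. At 20 µM these 4 genes were within 0.10 of the vehicle mean.

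**Figure D5:**
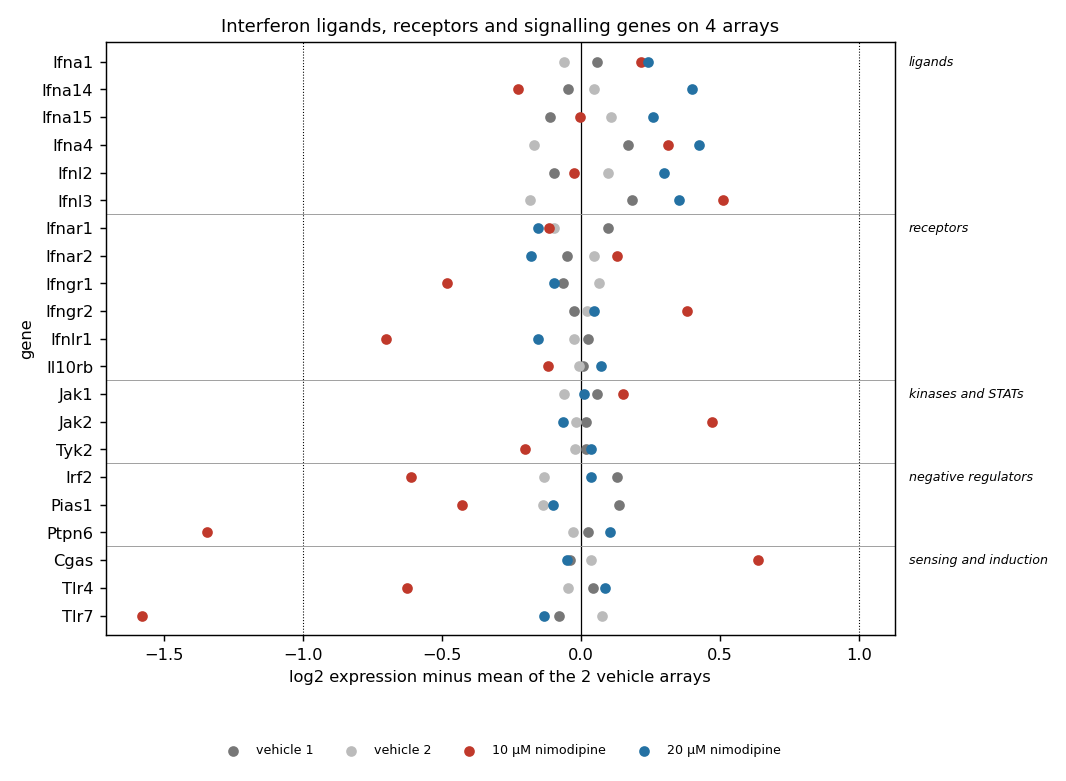
Log2 expression minus the mean of the 2 vehicle arrays for the 6 brighter interferon ligand genes and for receptor, kinase, regulator and sensor genes, with 1 point per array and dotted lines at a difference of 1. Ptpn6 and Tlr7 lie beyond -1 at 10 µM, the receptors Ifngr1 and Ifngr2 lie on opposite sides of 0 at that dose, and the 20 µM points of these 6 ligands lie to the right of 0.

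A second list of 91 genes that interferon also induces had 81 measured members, 58 of them brighter. At 10 µM 42 of the 81 were lower and 39 higher (median -0.02), beside 47.6% of all genes lower. Of the 58 brighter genes 29 were lower and 29 higher, beside 51.7% of all brighter genes lower. By 1 or more, 4 of the 81 were higher and 1 lower, beside 0.514% and 1.06% of all genes. In the 3-group fit limma called 4 of the 81, Ms4a6d, Casp4, Cd274 and Mov10, beside 1.59% of all genes. Ms4a6d, a membrane protein gene of myeloid cells, stood at 4.70 and 4.44 in vehicle, 7.43 at 10 µM and 5.10 at 20 µM. It was dim in both vehicle arrays and counted as a brighter gene through its 10 µM value. Casp4 encodes the mouse inflammatory caspase that senses cytosolic lipopolysaccharide; it was 3.12-fold higher at 10 µM (7.87 and 8.04 in vehicle, then 9.60). Cd274, which encodes the checkpoint ligand PD-L1, was 2.61-fold higher, at 8.32 and 8.34 in vehicle and 9.71 at 10 µM. Slfn2 was higher by 1.29, but its vehicle arrays already differed by 0.60. On the low side, Mov10, an RNA helicase that restrains retroelements, was 2.06-fold lower, at 9.10 in each vehicle array and 8.06 at 10 µM. Parp12, Phf11b and Sp100 differed by -0.89, -0.79 and -0.77.

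At 20 µM the same list was centred on vehicle (median -0.00), with 41 lower and 40 higher, beside 50.7% of all genes lower. Its brighter genes farthest below vehicle were Apobec3, a restriction factor of retroviruses, at -0.48, Herc3 at -0.37, Mlkl, the executor of necroptosis, at -0.36 and Ifitm3, which blocks viral entry, at -0.33. Those farthest above were Ms4a6d at 0.53, the immunity GTPase gene Igtp at 0.51, Slfn2 at 0.39 and Phf11a at 0.36. Of these, Ms4a6d was dim in both vehicle arrays and entered this ranking of brighter genes through its 10 µM value. At 10 µM Ifitm3 differed by 0.73 and Igtp by -0.64, so that each lay on opposite sides of vehicle at the 2 doses. The controls of Igtp had the same value, 5.22. At 20 µM limma's 3-group fit called 0 genes of this list, and 7 of the 81 had an unadjusted p under 0.05, beside 6.39% of all genes.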

How the data were processed

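RNA of 4 samples was hybridised to Affymetrix arrays. The deposited table gives 1 log2 value per probe set and array, made by RMA in Affymetrix Expression Console 1.2.1.20 per the submitters' processing notes. That method gives all arrays the same distribution of probe intensities before they are summarised, so it can hide a change common to most genes. The array medians of the deposited values ran from 5.02 to 5.06. No detection calls come with the values, and 4 arrays allow little precision.

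Of 41345 probe sets, 23521 carried a single gene symbol, which left 22180 genes. Each dose was compared with the mean of both vehicle arrays. limma 3.58.1 in R 4.3.3 (lmFit, eBayes, Benjamini-Hochberg adjustment over all genes, threshold 0.05), tested on simulated data first, compared both nimodipine arrays with both vehicle arrays. The labels do not say that arrays are separate cultures: p-values then reflect array-to-array spread alone, possibly technical.

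The genes and lists were chosen with earlier results of these data known. Named pathway genes were all receptors and kinases, the ligands that reached the median of all values, and the 3 largest differences in each other role. Of the second list they were the 4 brighter genes farthest each way at each dose. Ifnb1 was named besides, after its values were seen. Alternatives were the mean of probe sets, equal array medians, cyclic loess, leaving out dim genes, trend and robust eBayes, dose as a number, 3 groups, other thresholds and leaving out each array. RefSeq promoter windows were searched on both strands.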

Additional observations from a re-analysis of the deposited data

Results flagged for a closer look

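For 6 of the 32 interferon-stimulated genes the 10 µM and 20 µM arrays lay on opposite sides of both vehicle arrays. That is about the same share as among all genes, 18.9%. The value at 10 µM minus that at 20 µM was 0.83 for Ifit2, 0.82 for Bst2, -0.35 for Oasl1, -0.48 for Dhx58, -0.44 for Ifi35 and -0.41 for Adar. With 1 array a dose these differences were not tested against replicates; in the fit of 3 groups, limma's adjusted p for the contrast of the doses was 0.189 for Bst2 and higher for the other 5. Ifit2 was among the dimmer genes, and the 2 probe sets of Ifi35 differed in direction at 10 µM.

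The probe set shared by Oas1a and Oas1g, left out of the comparisons because it carries 2 symbols, stood at 5.69 and 5.77 in vehicle, 5.85 at 10 µM and 5.70 at 20 µM. It lay above both controls at 10 µM, by 0.12 from their mean.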

How the results depend on the processing

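The count called in nimodipine against vehicle was 0 of all genes and 0 of the 32 under every planned setting that keeps all 4 arrays in 2 groups or takes dose as a number. With 3 groups it was 353 genes and 1 of the 32 at 10 µM. Leaving out each array in turn gave 0 to 353 genes and 0 to 1 of the 32, the upper ends without the 20 µM array. The 2 genes past 1 at 10 µM became 1, Usp18, with cyclic loess, and 5 at a 1.5-fold threshold; leaving out vehicle 1 or vehicle 2 gave 1 to 3. The median difference of the 32 genes moved from -0.20 to -0.29 at 10 µM and from -0.09 to -0.15 at 20 µM with dim genes left out. These are the medians of the 23 brighter genes. Of the 9 dimmer genes left out, 8 were higher than the vehicle mean at 10 µM and 6 at 20 µM. Why brighter and dimmer genes differed was not tested. With equal array medians or cyclic loess, 105 of 128 values of single genes moved by no more than the SD of the vehicle pair and 23 by more. Leaving out a vehicle array cannot move a value past that SD, and averaging probe sets changes Ifi35 alone. The sign differed in 19 of 320 values over these 5 alternatives, all of values nearer 0 than 0.21 (Cmpk2, Ifi35, Ifih1, Irf9, Isg15, Mx1, Mx2, Oasl2, Parp14, Rsad2 and Zbp1). No paired analysis was possible because the labels number only the vehicle arrays and each dose has 1 array. Signal over background limits the 9 dimmer genes most.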
